A study of Mus musculus with 110 samples.

Results

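Joins of the mouse Igh segment JH4 were compared between untreated and auxin-treated cells of the parental pro-B line. The libraries were chosen by title: full junction libraries of the parental line, untreated (NT) or treated with the auxin indole-3-acetic acid (IAA), with lists of off-target junctions left out. This gave 16 libraries of 110 in the series, of which 98 were full junction libraries and 12 were off-target lists. There were 8 NT and 8 IAA libraries, from 4 replicates of each treatment with an a and a b library each. The replicate was the unit of every comparison.

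The line is a v-Abl transformed pro-B cell line that carries an Emu-Bcl2 transgene and lacks RAG2. All 16 libraries came from cells nucleofected with RAG2 and treated with the Abl kinase inhibitor STI-571 at 3 uM for 4 days in RPMI1640 with 15% FBS. The IAA cells also received 500 uM IAA for 6 h beforehand and throughout the STI-571 treatment. The genotype label holds the word WT in the IAA libraries and in NT replicates 3 and 4, and lacks it in NT replicates 1 and 2. No degron tag and no OsTIR1 appear among the parental labels, and a clone is not named. The labels do not say that replicates were separate cultures, so p-values measure only the spread between these samples. The assay reads genomic DNA, so cell type markers could not be checked.

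V(D)J recombination builds the exon for the antibody variable region from V, D and J segments. The RAG1 and RAG2 proteins cut beside recombination signal sequences, each a conserved heptamer, a spacer and a conserved nonamer. In pro-B cells a D segment joins a JH segment before a VH segment joins the DJH product. Ighd4-1 (DQ52) lies beside the JH cluster, Ighd1-1 (DFL16.1) lies at the far end of the D array, and the Ighd2 (DSP2) segments lie between them. IAA brings proteins with an AID degron to the plant receptor OsTIR1, which marks them for breakdown. IAA in a line with neither component shows how junctions differ with the compound alone, the question this control addresses.

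Reads started in bait sequence beside JH4 (chr12:114666725-114666778 in mm9) and ran through JH4 and across a junction into a prey sequence. The a and b libraries differed in the bait itself, within 30 bases of mm9 from chr12:114666671-114666700, shown here since both versions enter every replicate. The a version is 3 bases shorter than the bone marrow version, which matched mm9, and the b version is 3 bases longer.
bone marrow bait: cagaaaactccataacaaaggttaaaaata
a bait: cagaaaactcctcaaaggttaaaaataaag
b bait: cagaaaactccataagggcaaaggttaaaa

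Between 89.7% and 98.2% of the reads of a parental library held its own bait version, and 0.0% held the version of the other letter. The labels do not say what a and b stand for. Prey positions in the files were shifted by 3 bases in opposite directions in a and b, and the shift was removed.

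The prey sequences at the D segments that the results turn on are printed as the reads give them, from the joined coding end on. Capitals mark the first heptamer with at most 1 mismatch to CACAGTG that is followed, after 12 bases, by a nonamer with at most 3 mismatches to ACAAAAACC, and that nonamer. They form the signal on the far side of the D segment, facing the VH segments, which a D-to-JH join keeps. Segments without a clear single mm9 match are named by their position on chromosome 12 in the coordinates of the files.
Ighd4-1: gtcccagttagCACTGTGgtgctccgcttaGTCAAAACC
D_114687612: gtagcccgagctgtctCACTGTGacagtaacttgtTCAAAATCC
D_114690286: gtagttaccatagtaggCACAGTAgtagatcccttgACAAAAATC
D_114695747: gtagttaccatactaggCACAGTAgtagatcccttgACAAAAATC
Ighd2-4: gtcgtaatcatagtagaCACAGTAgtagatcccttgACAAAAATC
D_114705399: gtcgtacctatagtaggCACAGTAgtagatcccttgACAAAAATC
D_114710077: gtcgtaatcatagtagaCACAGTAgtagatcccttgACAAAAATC
D_114714725: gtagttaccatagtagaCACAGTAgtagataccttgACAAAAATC
D_114723458: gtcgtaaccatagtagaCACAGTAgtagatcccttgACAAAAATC
Ighd1-1: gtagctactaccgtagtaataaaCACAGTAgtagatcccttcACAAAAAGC

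Such a heptamer, starting within the first 40 prey bases in this orientation, and nonamer were found in 15 of 26 D segments, or 57.7%. Over 60 prey bases, D_114690286 was identical to D_114695747 at 59 bases, to D_114714725 at 58 and to Ighd2-4 at 56, but to Ighd1-1 at only 19. The Ighd2-like segments are therefore near copies of each other, and reads could be split between copies by the alignment. Their sum is given beside the single segments for that reason.

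The signal on the joined side is lost in a D-to-JH join and was read from mm9, just before the coding end. It is shown for 3 segments with a single mm9 match, as nonamer, 12-base spacer and heptamer on the plus strand, with nonamer and heptamer in capitals.
Ighd4-1, chr12:114668711-114668738: GGTTTTTGTtgagccacgtgtCACCGTG
Ighd2-4, chr12:114708877-114708904: GGTTTTTGTtgctggatatatCACTGTG
Ighd1-1, chr12:114720353-114720380: GGTTTTTGCtgatggatatagCACTGTG

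The heptamer of Ighd1-1 and of Ighd2-4 had 0 mismatches to CACTGTG, and that of Ighd4-1 had 1. The nonamer had 1 mismatch in Ighd1-1 and 0 in the other two.

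The 16 libraries held 947774 junction reads, with 7247 to 116863 per library. Replicates 1 and 2 were shallower than replicates 3 and 4: NT replicates held 17607, 14866, 231023 and 225136 reads, and IAA replicates 42463, 56969, 165601 and 194109. By their read names, NT replicates 1 and 2 shared 1 sequencing run, IAA replicates 1 and 2 another, and replicates 3 and 4 of both treatments shared a run of their own. Treatment can thus be compared within 1 run only in replicates 3 and 4. Repeated reads of the same junction also differed by depth. Reads per distinct junction were 1.24, 1.20, 3.03 and 3.49 in NT and 1.36, 1.44, 1.93 and 2.17 in IAA.

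With IAA, fewer junction reads lay at Ighd1-1, the most used D segment, and more lay at D segments in the middle of the array. The share of junction reads at Ighd1-1 was 61.5, 60.8, 60.3 and 60.2% in NT replicates 1 to 4 and 55.1, 52.4, 51.3 and 51.4% in the IAA replicates. Every IAA replicate was below every NT replicate, and the lowest NT replicate and the highest IAA replicate were 60.2% and 55.1%. As a mean of the a and b libraries, the share was 60.7% ± 0.571 in NT and 52.5% ± 1.79 in IAA (SD, n = 4 each). The difference of -8.16 percentage points had an exact two-sided permutation p of 0.0286, the smallest that 4 against 4 replicates (70 arrangements) allow, and 0.109 after Benjamini-Hochberg adjustment over 19 locus classes. In limma's segment test, described below, use of Ighd1-1 fell by 0.21 on the log2 scale (SE 0.032, adjusted p 0.00064).

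The D segments between Ighd4-1 and Ighd1-1 took 26.3, 25.3, 26.3 and 26.7% of reads in NT and 31.1, 33.2, 35.2 and 34.7% in IAA. The groups did not overlap, and the IAA replicates lay within a wider range. The mean was 26.1% ± 0.590 in NT and 33.5% ± 1.84 in IAA (SD, n = 4 each), a difference of 7.38 percentage points (exact permutation p 0.0286, adjusted 0.109). The Ighd2-like segments made up most of this, with 24.8% in NT and 31.9% in IAA. Both kinds of library gave these differences alone. At Ighd1-1 the a libraries spanned 60.1 to 62.2% in NT and 51.5 to 55.5% in IAA, and the b libraries 59.96 to 60.8% and 50.9 to 54.7%.

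The share at all D segments together was 92.5% ± 0.963 in NT and 91.7% ± 0.942 in IAA (SD, n = 4 each; exact permutation p 0.286). Of the 19 classes of junction, 5 had an exact p under 0.05 (26.3%), all at the smallest p and at 0.109 after adjustment. They were Ighd1-1, the middle D segments, the Ighd2-like segments among them, the 5 kb upstream of Ighd1-1 and inverted joins in the JH cluster. A share is relative: fewer joins at Ighd1-1 and more joins elsewhere cannot be told apart in these libraries.

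**Figure D1:**
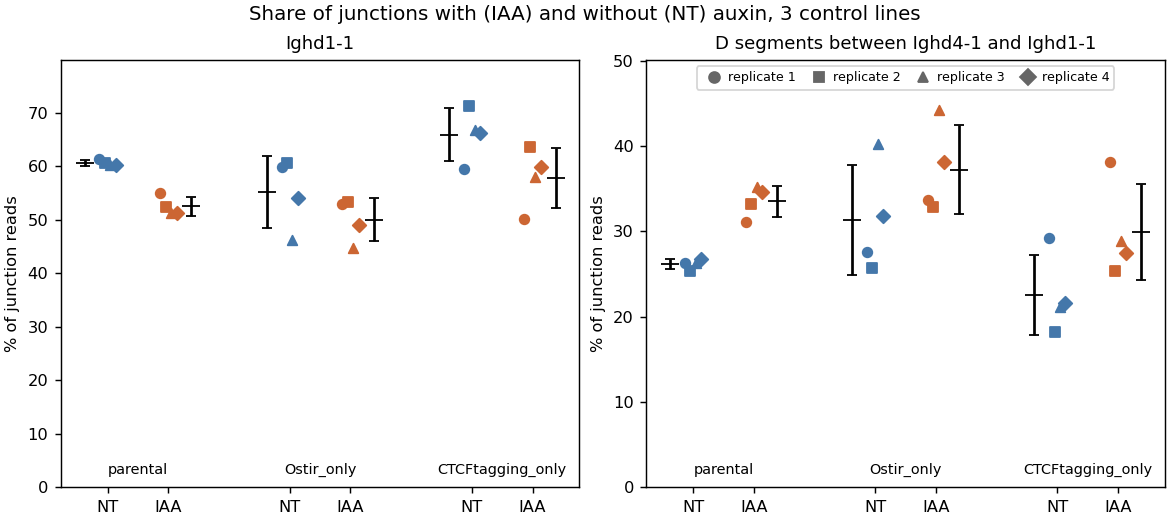
Share of junction reads (percent, mean of the a and b libraries) at Ighd1-1 (left) and at the D segments between Ighd4-1 and Ighd1-1 (right), for each replicate of 3 lines without (NT) and with (IAA) auxin; black bars give the mean and SD of 4 replicates. In the parental line the NT and IAA replicates do not overlap in either panel, while in Ostir_only and CTCFtagging_only the replicates spread more widely and overlap.

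Single segments were tested with limma's voom on junction reads, with a and b summed and the total of all junctions as scale. Of 31 segments with a mean of at least 10 reads per replicate, 9 had an adjusted p under 0.05 (29%). Of these, 8 rose with IAA (25.8%) and 1, Ighd1-1, fell (3.23%). All 9 were D segments: 9 of 18 D segments tested passed. By limma 0 of 13 VH segments passed, and 1 of them, Ighv2-3, had an unadjusted p under 0.05. The median log2 difference was 0.26 over the D segments, -0.03 over the VH segments and 0.18 over all 31. The NT and IAA replicates of 7 segments did not overlap (22.6%), and all of these were D segments.

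D_114690286, the copy closest to Ighd2-5 of mm9 (97.5% identity over 200 bases), was the most used of the segments that rose. It took 6.65, 5.95, 6.01 and 5.74% of reads in NT and 7.95, 8.47, 8.88 and 8.79% in IAA. Every IAA replicate lay above every NT replicate, and the difference was 1.45-fold (log2 0.54, SE 0.058, adjusted p 0.000115).

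Ighd2-4, a DSP2 segment 34.1 kb from Ighd1-1, took 1.07, 1.01, 1.12 and 1.11% of reads in NT and 1.51, 1.79, 1.71 and 1.89% in IAA. The groups were well apart, and use rose 1.58-fold (log2 0.66, SE 0.093, adjusted p 0.00055). Its near copy D_114710077, 98.5% identical over 200 bases, had a like difference in this fit (log2 0.66, SE 0.125, adjusted p 0.0029). Its values were 1.06, 0.969, 0.830 and 0.720% in NT and 1.14, 1.27, 1.36 and 1.42% in IAA. NT replicate 1 and IAA replicate 1 came closest to each other. In other fits the 2 copies differed more. Within the run that held both treatments, the log2 difference was 0.85 at D_114710077 and 0.69 at Ighd2-4. At equal depth with identical junctions counted once, described below, it was 0.34 (adjusted p 0.0881 by limma) and 0.55.

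D_114714725, closest to Ighd2-8, took 3.17, 3.06, 2.76 and 2.96% in NT and 3.85, 3.93, 3.59 and 3.68% in IAA. The groups did not overlap (log2 0.35, SE 0.070, adjusted p 0.0034). D_114695747, another copy closest to Ighd2-5, took 3.04 to 3.27% in NT and 3.63 to 3.86% in IAA, again with no overlap (log2 0.27, SE 0.061, adjusted p 0.0078). D_114723458, closest to Ighd2-7, took 0.796 to 0.886% in NT and 0.982 to 1.12% in IAA (log2 0.34, SE 0.086, adjusted p 0.013).

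In 2 of the segments that rose the groups overlapped and the call depended on single replicates. D_114705399 took 2.57, 2.39, 1.59 and 1.83% in NT and 3.19, 3.49, 2.41 and 2.54% in IAA (log2 0.55, SE 0.167, adjusted p 0.030). Replicates 1 and 2 were above replicates 3 and 4 in both treatments. Without NT replicate 3 its log2 difference was 0.42 (adjusted p 0.137), and it also missed the threshold without NT replicate 4 (0.51, adjusted p 0.107) or IAA replicate 1 (0.51, 0.0790) or 2 (0.47, 0.0678). D_114687612, closest to Ighd3-2 and the only called segment outside the Ighd2-like group and Ighd1-1, took 0.551, 0.700, 0.429 and 0.462% in NT and 0.692, 0.783, 0.659 and 0.593% in IAA. Its log2 difference was 0.46 (SE 0.143, adjusted p 0.030). It missed the threshold without NT replicate 3 (0.36, adjusted p 0.150) or 4 (0.43, 0.107) or IAA replicate 1 (0.45, 0.0790), 2 (0.41, 0.0814) or 3 (0.47, 0.0722). D_114723458 above missed it narrowly without NT replicate 3 (0.31, adjusted p 0.0568) or 4 (0.33, 0.0556). The other called segments passed with any replicate left out.

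**Figure D2:**
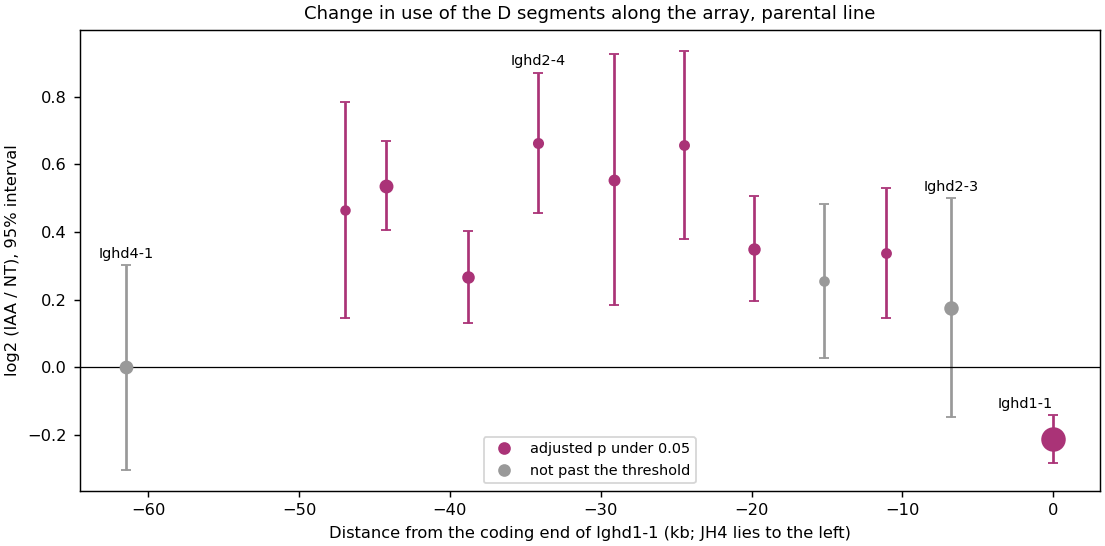
Log2 difference in use with IAA over NT (limma voom, points with 95% intervals) of the 12 D segments with at least 0.1% of NT reads, by distance from the coding end of Ighd1-1 in kb, with JH4 to the left; point size grows with the NT share. Ighd4-1 at the JH4 side lies at 0, the called segments between 46.9 and 11.1 kb lie above 0, and Ighd1-1 at the right lies below 0.

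Ighd4-1 and Ighd2-3 did not pass the test over all replicates. Ighd4-1, the D segment next to the JH cluster, took 5.87, 6.89, 4.95 and 4.88% in NT and 6.45, 6.75, 4.70 and 4.66% in IAA. Replicates 1 and 2 were above replicates 3 and 4 in both treatments, and the log2 difference was -0.00 (SE 0.136, 95% interval -0.30 to 0.30). Ighd2-3, 6.77 kb from Ighd1-1 on the JH side, took 6.25, 6.14, 8.92 and 9.07% in NT and 7.09, 7.64, 10.7 and 9.95% in IAA. Here replicates 3 and 4 were the high ones in both treatments, and the difference over all replicates was 0.18 (SE 0.146, adjusted p 0.437). Within the run that held both treatments it was 0.19 with an adjusted p of 6.7e-08 (limma, 2 replicates each, with the spread pooled over segments). With the run as a term it was 0.20 (adjusted p 6.0e-05 by limma). In that fit only replicates 3 and 4 inform the treatment difference, so it is not a second result. A block by replicate number gave 0.20 (adjusted p 2.3e-06 by limma), although the numbers were not shown to pair the samples. With identical junctions counted once, replicates 3 and 4 overlapped between treatments at Ighd2-3 (10.17 and 10.55% in NT, 11.13 and 10.21% in IAA). They also overlapped with preys of at least 100 aligned bases (9.76 and 10.4% in NT, 10.9 and 10.1% in IAA). At equal depth, described below, they did not (10.4 and 10.6% in NT, 11.3 and 10.9% in IAA).

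D_114719358 lay 15.2 kb from Ighd1-1 and its closest mm9 match was Ighd1-1 itself, at 79.65% identity. It took 0.612 to 0.767% in NT and 0.714 to 0.872% in IAA (log2 0.26, adjusted p 0.0908). The remaining 6 D segments, D_114689021, D_114698902, D_114708573, D_114713225, Ighd6-2 and D_114732517, had group means between 0.00797% and 0.0754%. Their log2 differences ran from -0.26 to 0.63 with adjusted p of 0.230 to 0.928, and none passed the test. The 95% intervals of 4 of them included the 0.66 of Ighd2-4 (-0.72 to 1.21, -0.16 to 1.43, -0.63 to 1.04 and -0.94 to 0.83 for D_114689021, D_114698902, D_114713225 and Ighd6-2). Those of D_114732517 (-0.79 to 0.41) and D_114708573 (-0.88 to 0.36) lay below it.

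How many D segments passed depended on the scale. Scaling by the median ratio over segments moved the log2 differences by -0.17 and left 5 calls of 31 (16.1%), 3 higher (D_114690286, Ighd2-4 and D_114710077) and 2 lower (Ighd1-1 and Ighv2-3), against 8 higher and 1 lower with the library total. With the junctions other than Ighd1-1 as scale, the shift was -0.28 and the calls were 2 higher (D_114690286, 0.24, and Ighd2-4, 0.39) and 3 lower (Ighd1-1, VH_114830805 and Ighv2-3), again 16.1%. On that scale D_114695747 and D_114719358 turned to -0.01 and -0.02.

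Among junctions other than Ighd1-1, the middle D segments took 68.2, 64.5, 66.3 and 67.1% in NT and 69.2, 69.8, 72.1 and 71.3% in IAA. The groups did not overlap, with the highest NT and lowest IAA replicates 68.2 and 69.2%. The means were 66.5% ± 1.56 and 70.6% ± 1.36 (SD, n = 4 each; exact permutation p 0.0286, adjusted 0.162 over 17 classes). Ighd4-1 took 14.4% ± 2.51 and 11.9% ± 2.69 of these junctions (exact permutation p 0.229, n = 4 each), and the VH region 11.7% ± 2.18 and 9.32% ± 1.01 (exact permutation p 0.114, n = 4 each). In all, 3 of 17 classes (17.6%) had an exact p under 0.05: the middle D segments, the Ighd2-like segments within them, and the 5 kb upstream of Ighd1-1.

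Within the run that held replicates 3 and 4 of both treatments, the share at Ighd1-1 differed by -8.96 percentage points, and between the other runs by -7.35. For the middle D segments these values were 8.41 and 6.34. A comparison of 2 against 2 replicates cannot give an exact p under 0.333. In limma's test within that run 14 of 41 segments were called (34.1%), 10 higher and 4 lower, among them all 9 above. Prey length and read repetition moved in opposite ways between these runs. The mean aligned prey length was 137, 154, 115 and 96.4 bases in NT and 136, 136, 165 and 156 in IAA, so it was 55.3 bases longer with IAA in the shared run and 9.48 shorter between the other runs. The Ighd1-1 difference was in the same direction in both, and with preys of at least 100 aligned bases only it was -7.98 percentage points (exact permutation p 0.0286). Within the shared run, prey length and reads per distinct junction also separated by treatment, and their part in the difference was not tested.

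Counting identical junctions once gave shares that moved with depth. Junctions were taken as identical when chromosome, position, orientation, bait end and prey alignment bounds were the same within a library. Ighd1-1 then took 55.4, 55.9, 36.5 and 36.3% of distinct junctions in NT and 47.1, 43.7, 35.8 and 33.9% in IAA. The deep replicates 3 and 4 were low in both treatments, the groups overlapped, and the means were 46.0% ± 11.1 and 40.1% ± 6.27 (SD, n = 4 each; exact permutation p 0.286). With limma, 0 of 28 segments were called in either direction (0%), and 2 had an unadjusted p under 0.05.

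To remove the unequal depth, each library was thinned to 7247 reads, the number of the smallest, before identical junctions were counted once. The reads were drawn at random a single time for the shares, and separately for the limma test. Ighd1-1 then took 55.5, 56.1, 50.6 and 48.7% in NT and 50.8, 48.5, 45.6 and 45.2% in IAA. The groups overlapped, since NT replicate 4 lay below IAA replicate 1 (52.7% ± 3.61 against 47.5% ± 2.64, SD, n = 4 each; exact permutation p 0.0857). The middle D segments took 30.2, 28.3, 32.3 and 33.8% against 33.9, 35.9, 39.2 and 38.7%. NT replicate 4 and IAA replicate 1 nearly met, at 33.83 and 33.85%, without overlap (31.2% ± 2.43 against 36.9% ± 2.50; exact permutation p 0.0286, n = 4 each). A gap this small may not hold in another random draw, which was not tested. Of 20 segments tested by limma, 3 were called (15%), all higher: D_114690286 (log2 0.38, adjusted p 0.0060), Ighd2-4 (0.55, 0.0415) and D_114714725 (0.22, 0.0415). Ighd1-1 had a log2 difference of -0.15 (adjusted p 0.145).

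**Figure D3:**
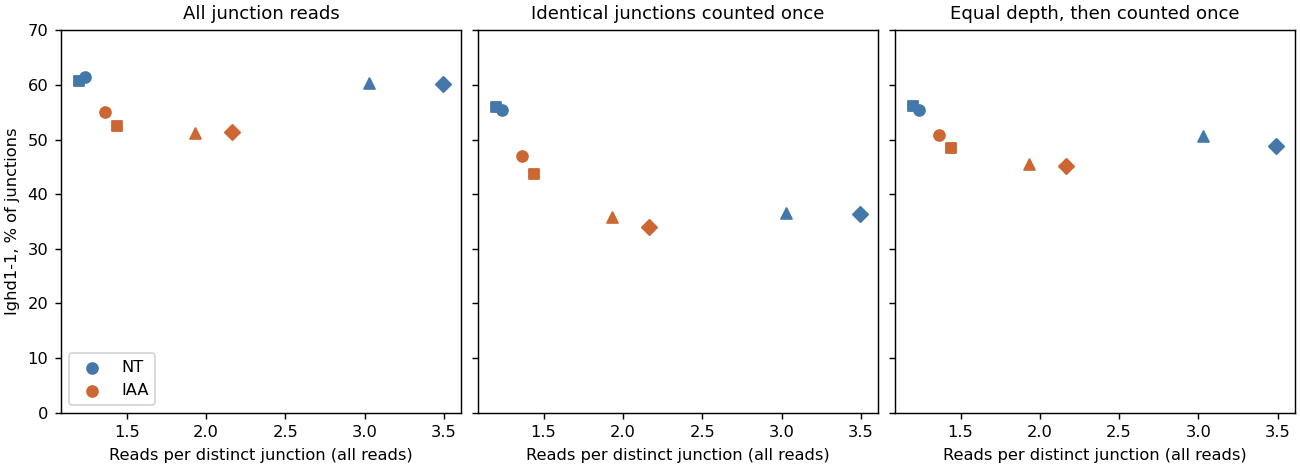
Share of junctions at Ighd1-1 (percent) against reads per distinct junction in the 4 NT and 4 IAA replicates (circle, square, triangle and diamond for replicates 1 to 4), for all reads, for identical junctions counted once, and for equal depth followed by counting once. With all reads the NT replicates lie at 60.2 to 61.5% and the IAA replicates at 51.3 to 55.1%; counted once at full depth, replicates 3 and 4 of both treatments lie near 36 and 34%.

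Besides the D segments themselves, joins at a few discrete places in the 5 kb on the VH side of Ighd1-1 were more frequent with IAA. This interval holds no D segment that met the requirements for a segment. It took 1.48% ± 0.110 of reads in NT and 2.29% ± 0.260 in IAA (SD, n = 4 each), with 1.34 to 1.59% and 2.03 to 2.63% and no overlap (exact permutation p 0.0286, adjusted 0.109). At equal depth with identical junctions counted once the groups overlapped (1.56 to 2.49% in NT, 2.15 to 2.90% in IAA). Counted once at full depth they overlapped too (1.57 to 3.98% in NT, 2.59 to 4.98% in IAA). Windows of 100 bp with a mean of at least 0.1% of reads were then tested. They were chosen after their values were seen, and there were 5. Of these, 3 rose with IAA (60%), each with an exact permutation p of 0.0286 and 0.0476 after adjustment over the windows. The windows divide an interval that had already risen in the same replicates, and 0.0286 is the smallest p possible. The adjusted value therefore depends on how many windows were kept and is not a second result.

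The window 1000 to 1100 bp upstream took 0.522, 0.484, 0.5001 and 0.503% in NT and 0.891, 0.932, 0.968 and 1.14% in IAA. All NT replicates lay close together, every IAA replicate was above them, and the ratio of means was 1.95. The window at 1900 to 2000 bp took 0.324, 0.289, 0.222 and 0.195% in NT and 0.429, 0.421, 0.395 and 0.486% in IAA, a ratio of 1.68. The window at 3100 to 3200 bp took 0.123 to 0.159% in NT and 0.168 to 0.228% in IAA, a ratio of 1.38. This last one missed the threshold without NT replicate 3 or IAA replicate 2, with differences of 0.0480 and 0.0398 percentage points (exact permutation p 0.0571 each).

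The windows at 3500 to 3600 bp and 3600 to 3700 bp did not differ by more than the replicate spread. They took 0.118% ± 0.0455 and 0.325% ± 0.110 in NT and 0.122% ± 0.0395 and 0.327% ± 0.103 in IAA (SD, n = 4 each). At equal depth with identical junctions counted once, the windows at 1000 and 1900 bp were again apart, by 0.378 and 0.161 percentage points (exact permutation p 0.0286 each). The window at 3100 bp was not (0.0386, exact permutation p 0.343). Counted once at full depth, 1 window, at 1900 bp, had non-overlapping groups.

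The most frequent positions in the 3 windows that rose lay 1030, 1986 and 3176 bp from the coding end of Ighd1-1. The mm9 bases just before those at 1030 and 1986 bp are shown because a signal would sit there, in the same layout as for the D segments, with the places of nonamer and heptamer in capitals. The mm9 copy at the same distance from Ighd1-1 was identical to the reads at 199 of 200 bases at both sites.
1030 bp site, chr12:114721383-114721410: AGTGCTGATgcccagtgctttCAGTGTG
1986 bp site, chr12:114722339-114722366: GTACACTCAtctctcctgtacCACTGTG

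The heptamer place had 1 mismatch to CACTGTG at 1030 bp and 0 at 1986 bp, and 4 at 3176 bp. The nonamer places had 5 and 7 mismatches of 9 bases to GGTTTTTGT at the first 2 sites. CACTGTG was found on either strand in 29 of 900 windows of 60 bases over the mm9 D region (3.22%). That count takes exact matches anywhere in a window, so it is not the rate at 1 fixed place, with or without a mismatch. The matches at the sites are a description of letters. The first 60 prey bases at each of these 2 sites matched mm9 in 2 places, so reads from another copy could be placed there.

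**Figure D4:**
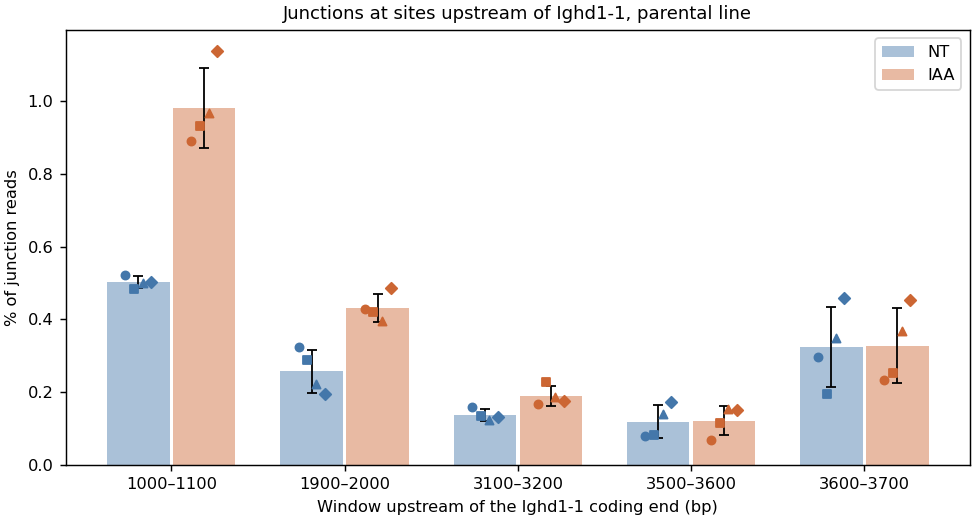
Share of junction reads (percent) in 5 windows of 100 bp upstream of the Ighd1-1 coding end in the parental line; bars give the mean of 4 replicates, black lines the SD, and circle, square, triangle and diamond replicates 1 to 4. In the first 3 windows every IAA replicate lies above every NT replicate, while in the last 2 the groups overlap.

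In the JH cluster, joins in the opposite orientation took 0.727, 0.749, 0.670 and 0.540% of reads in NT and 0.767, 0.855, 0.777 and 0.800% in IAA. The groups did not overlap, although NT replicate 2 lay close to IAA replicate 1 (0.671% ± 0.0939 against 0.800% ± 0.0393, SD, n = 4 each; exact permutation p 0.0286, adjusted 0.109). Ighj3 held the most, with 0.443, 0.357, 0.317 and 0.272% in NT and 0.410, 0.484, 0.372 and 0.416% in IAA. Ighj2 followed with 0.205 to 0.288% and 0.279 to 0.310%, and at both segments the groups overlapped. With identical junctions counted once, the groups overlapped for the sum as well, with a difference of 0.0929 percentage points (exact permutation p 0.714). As a share of junctions other than Ighd1-1 the difference was -0.02 percentage points, in the opposite direction. With 1 of the IAA replicates left out in turn, the exact permutation p lay between 0.0571 and 0.0857.

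The share of joins to VH segments showed no difference beyond the replicate spread. No VH segment was called over all replicates with the library total as scale and no block. Other scales or a replicate block called Ighv2-2, Ighv2-3 or VH_114830805 lower with IAA. Joins to VH segments come after D-to-JH joining and reach further from JH4. The VH region took 3.46, 4.31, 5.50 and 5.18% of reads in NT and 3.89, 3.93, 4.88 and 5.02% in IAA. Replicates 3 and 4 were above replicates 1 and 2 in both treatments (4.61% ± 0.918 against 4.43% ± 0.605, SD, n = 4 each; exact permutation p 0.743). Most lay in the first 100 kb of the VH region, with 4.25% ± 0.898 and 4.00% ± 0.652.

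Ighv5-2 (VH81X), the most used VH segment of this line, took 1.80, 2.19, 2.61 and 2.33% in NT and 1.77, 1.87, 2.75 and 2.65% in IAA. The groups overlapped over nearly their whole range (log2 -0.03, SE 0.165, 95% interval -0.39 to 0.34). Ighv2-2, the next one, took 0.596, 0.774, 1.36 and 1.39% in NT and 0.812, 0.786, 0.862 and 0.958% in IAA. NT replicates 3 and 4 stood above all the others, and the log2 difference was -0.39 (adjusted p 0.230). Within the run that held both treatments the difference at Ighv2-2 was -0.59 (adjusted p 3.1e-09 by limma, 2 replicates each). With the run as a term, which again rests on the shared run, it was -0.59 (adjusted p 5.0e-09 by limma). With the replicate number as a block, a pairing that was not shown to hold, it was -0.48 (adjusted p 1.7e-06 by limma). Without NT replicate 1 it was -0.51 (adjusted p 0.0432).

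Ighv2-3 had a log2 difference of -0.33 (adjusted p 0.0886), VH_114830805, the VH segment nearest the D array, -0.32 (0.230), and VH_114855361, closest to Ighv5-4, -0.19 (0.554). VH_114830805 took 0.114, 0.114, 0.181 and 0.184% in NT and 0.148, 0.105, 0.134 and 0.143% in IAA, with overlap. Ighv2-3 was lower with IAA past the threshold within the shared run (-0.41, adjusted p 0.0058) and under both other scales given above. With the run as a term, which again rests on the shared run, it was -0.41 (adjusted p 0.0142 by limma). With the replicate number as a block, a pairing that was not shown to hold, it was -0.36 (adjusted p 0.0287 by limma). Within the shared run VH_114830805 was also lower (-0.39, adjusted p 0.0387), and VH_115453076 was higher (1.34, adjusted p 0.0487). VH_115453076 was used rarely there, at 0.00909 and 0.00222% in NT and 0.00906 and 0.0149% in IAA. With preys of at least 100 aligned bases only, the shared-run groups overlapped at Ighv2-3 (0.251 and 0.212% in NT, 0.212 and 0.237% in IAA). They also overlapped at VH_114830805 (0.150 and 0.121% in NT, 0.130 and 0.128% in IAA). At Ighv2-2 they stayed apart (1.01 and 0.920% in NT, 0.725 and 0.824% in IAA). Over the whole family of VH segments, 6 of 13 folds lay above and 7 at or below 1.

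No measure of join structure differed with IAA beyond the spread over all replicates, while within the shared run the groups did not overlap for several of them. Inserted bases between bait and prey were found in 74.1, 75.1, 53.4 and 50.2% of Ighd1-1 joins in NT and in 76.3, 76.6, 62.2 and 60.2% in IAA. Replicates 3 and 4 were below replicates 1 and 2 in both treatments (63.2% ± 13.2 against 68.8% ± 8.85, SD, n = 4 each; exact permutation p 0.514). Within the shared run the means were 51.8 and 61.2%, and in the other runs 74.6 and 76.5%, so the share was higher in IAA in each same-numbered replicate. Overlap of bait and prey, that is bases that could belong to either, was found in 23.6% ± 9.86 of Ighd1-1 joins in NT and 19.8% ± 6.98 in IAA (exact permutation p 0.514, n = 4 each). In the shared run it was 32.1 against 25.8%, and in the other runs 15.1 against 13.8%. For the other D segments, inserted bases were found in 55.3 and 63.0% of joins in the shared run. These shared-run comparisons hold 2 replicates each, where the smallest exact permutation p is 0.333. The full coding end of Ighd1-1 was kept in 29.5% ± 2.72 and 28.1% ± 1.98 (exact permutation p 0.457, n = 4 each). Mean inserted bases in joins with insertion were 2.86 ± 0.169 and 2.97 ± 0.0981, and mean bases lost at the JH4 end 4.27 ± 0.367 and 4.32 ± 0.378. Of 15 measures of structure, 0 had an exact p under 0.05 (0%), also before adjustment.

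The same contrast was made in lines with 1 component of the degron system, each against its own untreated replicates. Ostir_only carries an Ostir1 knock in and CTCFtagging_only carries CTCF tagged with mAID and GFP; both are Emu-Bcl2 and RAG2 deficient. Each had 4 NT and 4 IAA replicates. At Ighd1-1 the share was 55.3% ± 6.71 in NT and 50.03% ± 4.06 in IAA in Ostir_only (exact permutation p 0.229, n = 4 each), and 66.0% ± 4.89 and 57.9% ± 5.63 in CTCFtagging_only (exact permutation p 0.0857, n = 4 each). For the middle D segments the shares were 31.4% ± 6.47 and 37.2% ± 5.19, and 22.5% ± 4.74 and 29.95% ± 5.64. In both lines the means differed in the direction seen in the parental line, with wider SDs and with overlap between groups. The libraries of CTCFtagging_only were all of 1 run, while those of Ostir_only came from 2 runs that each held 2 replicates of both treatments, so its SDs include the spread between runs. Within these runs the Ighd1-1 share in Ostir_only was 60.4 and 53.2% in one, where the groups did not overlap, and 50.2 and 46.9% in the other, where they did. The middle D share was 26.6 and 33.3% in the first and 36.1 and 41.2% in the second.

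The size of the IAA difference was compared between lines, as log2 ratios of the same-numbered IAA and NT replicates. The numbers were not shown to pair the samples, and in the parental line replicates 1 and 2 of the treatments came from different runs. The mean log2 ratio of IAA over NT at Ighd1-1 was -0.21 in the parental line, -0.14 in Ostir_only and -0.19 in CTCFtagging_only. The parental value was lower by 0.07 and by 0.02 (exact permutation p 0.0857 and 0.543, adjusted 0.429 and 0.629 over 10 comparisons, n = 4 each). For the middle D segments the parental log2 ratio of 0.36 stood beside 0.26 and 0.42 (exact permutation p 0.171 and 0.314, n = 4 each). The ratios ran from -0.23 to -0.16, -0.19 to -0.05 and -0.24 to -0.15 at Ighd1-1, and from 0.24 to 0.42, 0.13 to 0.35 and 0.35 to 0.48 for the middle D segments, in the order parental, Ostir_only and CTCFtagging_only. In a joint limma fit of the 3 lines, 0 of 39 segments had a line-by-treatment difference against either line with adjusted p under 0.05 (0%), and 1 and 0 had an unadjusted p under 0.05.

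In that joint fit, all 9 segments called in the parental line differed in the same direction in both other lines. The D segments that were not called also kept the parental direction in Ostir_only, and most of them did in CTCFtagging_only. VH segments went both ways. A shared direction is thus not particular to the 9 called segments. Adjusted p under 0.05 was reached by 1 of the 9, Ighd2-4, in Ostir_only and by 4 in CTCFtagging_only: D_114690286, Ighd2-4, D_114705399 and D_114710077. They were the only segments of the 39 tested that passed in these lines. For the parental line itself the spread of the joint fit is wider, and Ighd1-1 (log2 -0.21, SE 0.0936) had an adjusted p of 0.252, while D_114690286, Ighd2-4 and D_114710077 passed. Ighd2-4 gave the most similar values, with log2 differences of 0.66 (SE 0.148) in the parental line, 0.66 (SE 0.147) in Ostir_only and 0.63 (SE 0.133) in CTCFtagging_only. The parental minus Ostir_only difference at Ighd1-1 was -0.09 (SE 0.132) and the parental minus CTCFtagging_only difference -0.02 (SE 0.126). These standard errors leave room for differences between lines as large as the parental difference itself.

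The window 1000 to 1100 bp upstream of Ighd1-1 took 0.498% ± 0.0935 in NT and 0.751% ± 0.169 in IAA in Ostir_only (exact permutation p 0.0571, n = 4 each). In CTCFtagging_only it took 0.502% ± 0.228 and 0.880% ± 0.308 (exact permutation p 0.143, n = 4 each). The ratios of means, 1.51 and 1.75, stand beside 1.95 in the parental line, and the difference between these ratios was not tested.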

How the data were processed

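Junctions were measured by linear-amplification translocation sequencing of genomic DNA from the JH4 bait. Each line of the deposited tables is 1 read with its junction, in 32 columns, none of them a count; per the labels, the authors aligned reads to a hybrid of AJ851868 and mm9. Bowtie2 and mm9 appear in the submitters' processing notes, with no version; filters are not given in the sources used here. Junctions were tallied per library in Python 3.11.15 (pandas 2.3.3, numpy 2.4.6). Segments are peaks of plus-orientation junctions whose prey matched the recombining end of an mm9 V or D segment: 215 candidates gave 121 segments, 95 VH and 26 D. A junction within 100 bp was assigned. Symbols follow RefSeq's GRCm38.p6 table.

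A share is the percent of all junction reads of a library, averaged over a and b for each replicate. Shares were compared with two-sided exact permutation tests. Single segments were tested with limma 3.58.1 (R 4.3.3) on voom weights, a and b summed, pseudocount 0.5, minimum mean of 10 junctions per replicate, Benjamini-Hochberg adjusted p under 0.05. The procedure was tested on simulated data. These held more segments and larger library totals than the real data, a fixed spread between replicates, no run effects and no repeated reads. That test therefore does not cover the depth, the number of segments or such other features of the libraries. Named segments were all D segments tested, Ighv5-2, the VH nearest the D array, the 4 most used VH and any VH called. Members, segments and lists were chosen with earlier results of these data known. The alternatives covered scale, filters, weights, window, a or b only, run, identical junctions, depth, prey length and replicates left out. The barcode column of the 16 tables was empty and no read was marked as a duplicate, so reads are not independent molecules.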

Additional observations from a re-analysis of the deposited data

Results flagged for a closer look

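In groups of 4 replicates, a value was listed here where its gap to the nearest other value, divided by the group's range, exceeded Dixon's critical value. Of 102 groups tested, 2 had such a value, and chance gives about 1 in 20. The share of junction reads on other chromosomes was 0.334% in NT replicate 4 against 0.279 to 0.284% in the other NT replicates. Ighv5-6 took 0.153% in NT replicate 3 against 0.125 to 0.128% in the others. Of 38 measures compared between the lines, none had all replicates of the parental line on one side of 0 and all of another line on the opposite side.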

How the results depend on the processing

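Segment use stood at 9 calls and gave 6 to 11 with a replicate left out, of which 6 to 9 were among the 9. It gave 5 with median-of-ratios scaling, 5 with junctions other than Ighd1-1 as scale, 3 at equal depth with identical junctions counted once, and 14 within the shared run. Deviations of same-numbered NT and IAA replicates over segments correlated at 0.14, 0.208, 0.301 and 0.0708, and not every replicate correlated best with its own number. The main tests therefore did not pair samples by number. The replicate block, the sign-flip test and the log2 ratios compared between lines did use the numbers. With a replicate block segment use gave 12 calls, and the shares differed by -8.16 (Ighd1-1) and 7.38 (middle D segments) percentage points with a sign-flip p of 0.125, the smallest that 4 pairs allow. Counts on distinct junctions stood at 0 and gave 8 with a replicate block, 1 with a minimum mean of 50, 2 with pseudocount 5, 1 with a libraries only, 1 with b libraries only, 10 within the shared run, 11 with run as a term and 3 at equal depth. The cause of these changes was not tested. The parental against Ostir_only segment comparison gave 1 call with a replicate block within line.

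The Ighd1-1 share differed by -5.89 with identical junctions counted once, -6.20 when inserted bases also had to be identical and -5.18 at equal depth, past the threshold in none. Within the shared run it differed by -8.96, where 2 against 2 replicates cannot give an exact p under 0.333. With a replicate left out it differed by -9.01 to -7.73. For the middle D segments the values were 6.48, 6.58 and, in the shared run, 8.41. Classes of junction past the threshold numbered 0 counted once, 1 with identical inserted bases, 1 at equal depth and 3 without Ighd1-1; 1 measure of structure passed when counted once, and 1 window upstream of Ighd1-1.

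Differences around 0 changed sign. The D share gave 0.153 counted once, 0.213 with identical inserted bases, 0.141 at equal depth, 0.145 of segment junctions, and -1.76 with preys of at least 100 bases, past the threshold. The VH share ran from -0.564 to 0.116 with a replicate left out and gave 0.440 with long preys. Inverted JH joins gave -0.0228 without Ighd1-1. Ighv5-2 use (log2) ran from -0.13 to 0.0769 with a replicate left out and gave 0.0906 with a replicate block, 0.0043 at a minimum of 1, 0.00048 unweighted, 0.0215 in b, 0.13 within the shared run, 0.13 with run as a term and 0.51 with long preys. Ighd4-1 ran from -0.0696 to 0.0784 and gave 0.0144 with segment junctions as scale, 0.0196 and 0.0323 at minimums of 1 and 50, 0.0474 in a, 0.0030 in b and 0.0356 with long preys. D_114713225 ran from -0.13 to 0.51 and gave -0.13 unweighted, -0.0800 without Ighd1-1 and -0.29 with long preys. Ighd6-2 ran from -0.30 to 0.11 and gave 0.10 unweighted. D_114732517 gave 0.0449 unweighted and 0.16 in b, D_114689021 -0.17 with pseudocount 5 and VH_114830805 0.0308 with long preys. Without Ighd1-1 in the scale D_114689021 gave -0.0318, D_114695747 -0.0123, D_114719358 -0.0165 and Ighd2-3 -0.0871.

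Bases lost at the JH4 end ran from -0.0801 to 0.172 (Ighd1-1) and -0.116 to 0.184 (other D) with a replicate left out and gave -0.170 and -0.0018 counted once; bases lost from the Ighd1-1 prey ran from -0.0372 to 0.234 and gave -0.156. The window at 3500 bp ran from -0.0091 to 0.0218 and gave -0.0504 counted once, -0.0118 at equal depth and -0.0039 in the shared run. The window at 3600 bp ran from -0.0410 to 0.0470 and gave -0.114 and -0.0516. The parental minus CTCFtagging_only log2 ratio of the VH share turned to -0.0397 at equal depth and -0.0061 with identical inserted bases, and that of the Ighd1-1 share to 0.0326 counted once, 0.0421 at equal depth and 0.0192 with identical inserted bases.

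Segments under 10 reads per replicate could not be tested. No run but 1 held both treatments, so fits with run as a term took the treatment difference from that run alone. The alternatives on depth, inserted bases, prey length, the scale without Ighd1-1 and the windows upstream were chosen after seeing the data.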
